A study of Mus musculus with 4 samples.

Results

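The *HoxD* cluster genes are *Hoxd1*, *Hoxd3*, *Hoxd4*, *Hoxd8*, *Hoxd9*, *Hoxd10*, *Hoxd11*, *Hoxd12* and *Hoxd13*, 9 of the 23420 gene symbols counted. They were taken by symbol, whatever their counts. RNA-seq was performed on 4 libraries of cervical motor neurons (MNs), 2 from WT cells of the mouse embryonic stem cell (mESC) line E14 and 2 from E14 cells labelled *Patz1* -/- (*Patz1* KO). Both genotypes were differentiated alike, with 1 μM retinoic acid (RA) and 0.5 μM smoothened agonist (SAG) added on day 2 to turn embryoid bodies into ventral spinal cells. The *Patz1* KO lines were made with Cas9 and a guide RNA and grown from single clones. Several clones existed, and the labels do not name the one behind each library, so the *Patz1* KO libraries may come from 1 clone. The replicates are separate differentiations, according to the methods of the study. The titles name ESCs, while the source and cell type name MNs, and the libraries were taken as MNs. The embryoid bodies were not sorted, so in these bulk libraries fewer cells of a type and less RNA per cell cannot be told apart.

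*Hox* genes encode homeodomain transcription factors that give cells their position along the head-to-tail axis. In each cluster the genes lie in the order in which they are switched on, the anterior genes at one end and the posterior genes at the other, and RA turns on the anterior end in cultured MNs while Polycomb proteins keep the posterior end silent. *Hoxd1*, *Hoxd3* and *Hoxd4* act in the hindbrain and neck, *Hoxd8* and *Hoxd9* further back in the trunk, and *Hoxd10* to *Hoxd13* in the lumbar region, limbs and genitalia. PATZ1 is a zinc finger protein that binds G-rich DNA, and the study asked whether it keeps active and silent *Hox* chromatin apart in MNs.

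The libraries held 14769104 to 23881522 counts. *Patz1* itself was counted in all libraries, with 1363 and 1499 (WT) against 1154 and 714 (*Patz1* KO), and was lower in *Patz1* KO (log2 fold change -1.04, standard error 0.095). A count over the whole gene does not show the edit itself. Of 14 MN markers, 9 were higher in *Patz1* KO at an adjusted p below 0.05, against 24.1% of all genes tested. The MN markers *Foxp1* (log2 fold change -1.05) and *Aldh1a2* (-1.21) were lower. Together the 14 had 866 to 909 CPM (counts scaled to a common library size, with TMM factors) in WT and 1127 to 1225 CPM in *Patz1* KO. Endoderm and mesoderm markers went down. Of 11 endoderm markers, 9 were tested and 7 were lower, against 23.8% of all genes, with 56.7 to 65.2 CPM in all in WT and 8.41 to 8.79 CPM in *Patz1* KO. Of 13 mesoderm and mesenchyme markers, 11 were tested and 9 were lower, with 158 to 178 CPM in WT and 19.0 to 20.3 CPM in *Patz1* KO. Of 8 pluripotency markers, 3 were tested and 1 was lower, with 7.32 to 8.87 CPM in WT and 5.69 to 7.04 CPM in *Patz1* KO. *Pou5f1*, an ESC marker, had 7, 7, 4 and 3 counts. *Nanog* (57, 75, 46 and 59 counts) and *Zfp42* (18, 26, 57 and 25 counts) were tested and not called. In these lists the marker with no count in any library was *Utf1*, and *Meox2* had no count in the first *Patz1* KO library. The part of these cells in the *HoxD* values was not tested.

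Along the *HoxD* cluster, the posterior neighbours *Hoxd8* and *Hoxd9* were higher in *Patz1* KO MNs, by 2.95-fold and 5.53-fold. *Hoxd4*, the most abundant gene of the cluster, was lower, at 0.685 of its WT level. *Hoxd3* and *Hoxd1* did not pass the test. *Hoxd10* to *Hoxd13*, at the posterior end, had at most 5 counts in any library of either genotype. Of the 9 genes, 5 had enough counts to be tested, *Hoxd9* only through its *Patz1* KO libraries. Of these, 2 were called higher and 1 lower by the edgeR quasi-likelihood (QL) test. A call is a p below 0.05 after the adjustment of Benjamini and Hochberg (BH). Among all 14269 genes tested, 47.9% were called, 24.1% higher and 23.8% lower, so 3 called of 5 tested is close to the background. The same 3 members had groups that did not overlap, which held for 74.2% of all genes tested. A log2 fold change as large as that of *Hoxd9* or larger was called in 63 genes, itself included, and one as large as that of *Hoxd8* or larger in 275 genes.

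**Figure D1:**
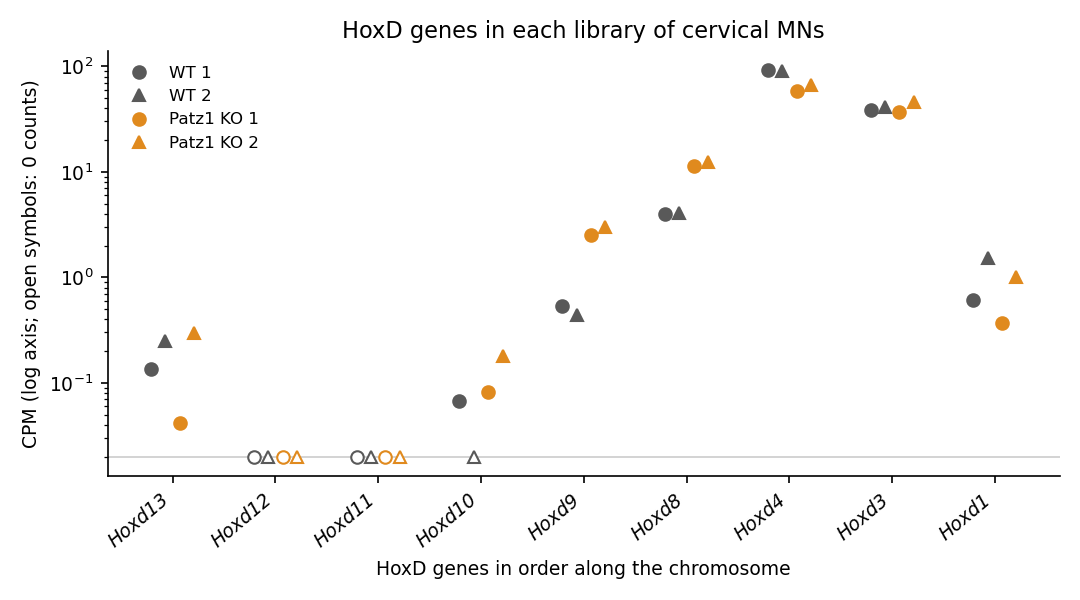
CPM of each *HoxD* gene in every library on a log axis, in order along the chromosome, with WT in grey, *Patz1* KO in orange, circles for replicate 1 and triangles for replicate 2. Open symbols on the lowest line are libraries with 0 counts. Both *Patz1* KO libraries lay above both WT libraries for *Hoxd9* (2.52 and 2.98 against 0.537 and 0.440 CPM) and *Hoxd8*, and below them for *Hoxd4*.

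The promoters of the 3 called genes differed in base composition, and they are shown because PATZ1 binds G-rich DNA and because *Hoxd8* and *Hoxd9* moved together. Each sequence, from RefSeq on GRCm38.p6, plus strand, runs from 250 bases before to 50 bases after the RefSeq start, which for *Hoxd4* lies inside the longer GENCODE gene. Capitals mark the CCAAT and TATAAA motifs, read on both strands.
Hoxd9: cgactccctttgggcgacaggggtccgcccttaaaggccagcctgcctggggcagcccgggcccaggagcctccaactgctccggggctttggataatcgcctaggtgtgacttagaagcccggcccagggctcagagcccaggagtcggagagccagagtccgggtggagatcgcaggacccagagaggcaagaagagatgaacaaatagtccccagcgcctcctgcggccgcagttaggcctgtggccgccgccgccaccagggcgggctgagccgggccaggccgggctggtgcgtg
Hoxd8: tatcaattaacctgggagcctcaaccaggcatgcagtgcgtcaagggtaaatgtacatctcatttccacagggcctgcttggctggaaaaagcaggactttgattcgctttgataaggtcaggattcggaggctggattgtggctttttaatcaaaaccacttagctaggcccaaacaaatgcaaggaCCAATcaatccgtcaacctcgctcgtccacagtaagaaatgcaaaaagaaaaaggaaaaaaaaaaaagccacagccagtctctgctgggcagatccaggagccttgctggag
Hoxd4: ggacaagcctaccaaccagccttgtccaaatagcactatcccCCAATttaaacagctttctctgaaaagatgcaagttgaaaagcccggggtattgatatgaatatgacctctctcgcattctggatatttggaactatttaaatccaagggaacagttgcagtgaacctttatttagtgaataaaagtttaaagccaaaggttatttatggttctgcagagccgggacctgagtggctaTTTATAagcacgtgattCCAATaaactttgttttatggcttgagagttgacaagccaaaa

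The *Hoxd9* promoter (chr2:74697513-74697812) had 68.3% G and C and 20 CpG dinucleotides, that of *Hoxd8* (chr2:74704365-74704664) 46.7% and 6, and that of *Hoxd4* (chr2:74721728-74722027) 39.7% and 4. The medians over 32851 promoters were 52.7% and 7. The G-rich motif GGGGNGGGG, searched on both strands, was not in these 3 windows. It was in the windows of *Hoxd12* and *Hoxd13*, with 0 to 5 counts per library, and in 22.4% of all promoters. CCAAT was found once in *Hoxd8*, at position -62 from the RefSeq start, and at -208 and 7 in *Hoxd4*. It was also in the windows of *Hoxd1*, *Hoxd3*, *Hoxd10*, *Hoxd12* and *Hoxd13*, against 37.4% of all promoters with at least 1. TATAAA was found in *Hoxd4*, at -10 on the minus strand, and in *Hoxd13*, against 13.6% of all promoters. The composite HOX and PBX motif TGATTNAT was found in 1 of the 2 promoters of *Hoxd11* and in 3.22% of all promoters.

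*Hoxd9*, whose product patterns the trunk and, with its paralogues, the MNs that serve the body wall and hindlimb, occupies bases 74697727 to 74700208 of chromosome 2 (GRCm38, plus strand). Its exons share no base with those of another annotated gene. The WT libraries gave 8 and 7 *Hoxd9* counts (0.537 and 0.440 CPM), the *Patz1* KO libraries 61 and 50 (2.52 and 2.98 CPM). All 4 values were low, and the groups did not overlap. *Hoxd9* passed the filter on low counts only through its *Patz1* KO libraries, where it was high. Mean levels were 0.489 ± 0.0685 CPM for WT against 2.75 ± 0.329 CPM for *Patz1* KO (SD, n = 2 each). On the log2 scale *Hoxd9* rose by 2.47 (standard error 0.39, 95% interval 1.64 to 3.29, BH-adjusted p = 5.52e-05, edgeR QL test). In linear terms the interval runs from 3.12-fold to 9.81-fold, and the WT value rests on 15 counts in all. Counting error alone gives the ratio of the summed counts an exact 95% interval of 3.23 to 10.3. Dropping any single library kept the log2 value between 2.34 and 2.62.

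*Hoxd8*, the next gene towards the anterior end (74704615 to 74707933), is expressed in the trunk. It starts 4406 bases after the end of *Hoxd9*. With 59 and 65 counts the WT libraries reached 3.96 and 4.09 CPM, and with 276 and 209 counts the *Patz1* KO libraries reached 11.4 and 12.5 CPM. The *Patz1* KO libraries were both high and the WT libraries both low, with no overlap. The mean of *Hoxd8* rose from 4.02 ± 0.0898 CPM to 11.9 ± 0.76 CPM (SD, n = 2 each). This is 1.56 on the log2 scale (standard error 0.18, 95% interval 1.17 to 1.95, BH-adjusted p = 2.17e-06, edgeR QL test). In counts, there were 13.6 and 10.8 *Hoxd9* reads for every 100 *Hoxd8* reads in WT and 22.1 and 23.9 in *Patz1* KO. This ratio does not depend on the scaling of the libraries, and both *Patz1* KO values lay above both WT values.

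*Hoxd4*, an anterior gene that RA switches on directly in the hindbrain and neck, is annotated from 74711929 to 74729160. It gave 1372 and 1431 counts (92.1 and 90.002 CPM) in the WT libraries, against 1412 and 1120 counts (58.3 and 66.8 CPM) in the deeper *Patz1* KO libraries. Both *Patz1* KO libraries were below both WT libraries. The mean of *Hoxd4* fell from 91.1 ± 1.49 CPM to 62.5 ± 6.03 CPM (SD, n = 2 each), which is -0.54 on the log2 scale (standard error 0.095, 95% interval -0.75 to -0.34, BH-adjusted p = 0.00014, edgeR QL test). A minimum absolute log2 fold change of 1 ended this call (adjusted p = 1 from edgeR).

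*Hoxd3*, its neighbour (74711927 to 74748442), also acts in the hindbrain and neck. The WT libraries held 570 and 651 *Hoxd3* counts (38.3 and 40.9 CPM), those of *Patz1* KO 888 and 767 (36.6 and 45.7 CPM). The lowest and the highest value were both from *Patz1* KO, so the groups overlapped. The log2 fold change of 0.05 (standard error 0.11, 95% interval -0.19 to 0.29) did not pass the test (BH-adjusted p = 0.739, edgeR QL test), and without the second *Patz1* KO library it was -0.11. For every 100 *Hoxd4* reads there were 41.5 and 45.5 *Hoxd3* reads in WT and 62.9 and 68.5 in *Patz1* KO.

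The values of *Hoxd3* and *Hoxd4* are the least certain of the abundant members, because their annotated exons share 388 bases, which is 9.3% of the exon bases of *Hoxd3* and 13.2% of those of *Hoxd4*. A predicted gene, *Gm28230*, runs through both and shares 2225 bases with *Hoxd3* and 1154 with *Hoxd4*. The antisense gene *Hoxd3os1* shares 347 bases with each. How reads in shared bases were counted, and whether strand was used, is not given in the sources used here. With the counts of *Hoxd3* and *Hoxd4* added up as 1 feature, the log2 fold change was -0.34 (BH-adjusted p = 0.00682, edgeR QL test). *Hoxd3os1*, listed under its older symbol *1700109F18Rik*, had 48, 36, 52 and 43 counts in the same order of libraries and did not pass the test (log2 fold change -0.23, standard error 0.29, BH-adjusted p = 0.543, edgeR QL test). The microRNA gene *Mir10b*, which lies inside *Hoxd4*, had 8, 2, 0 and 6 counts in the 4 libraries and was not tested.

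The study measured *Hoxd3*, *Hoxd4*, *Hoxd8* and *Hoxd9* by RT-qPCR as well, and the primers show which bases of these transcripts that assay reads. They are shown because the *Hoxd3* and *Hoxd4* pairs bear on the overlap of these genes. The primer sequences below are 5′ to 3′, and each was matched, without mismatch, to the GENCODE transcripts.
Hoxd8 forward: gctcgtctccttctcaaatgtt
Hoxd8 reverse: gcgactgtaggtttgtcttcct
Hoxd9 forward: cagcaacttgacccaaacaac
Hoxd9 reverse: tggtatttggtgtagggacagc
Hoxd3 and Hoxd4 forward: ctacccttggatgaagaaggtg
Hoxd4 reverse: ttctaggacttgctgtctggtg
Hoxd3 reverse: tcagacagacacagggtgtga

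The *Hoxd8* pair spans chr2:74706077-74706554 of GRCm38 and joins both coding exons of the gene. The *Hoxd9* pair spans chr2:74698818-74699249, with the forward primer across the junction of exons 1 and 2, and its reverse primer also occurs in *Hoxb9*. The *Hoxd3* and *Hoxd4* pairs, as listed, have the same forward primer at chr2:74727671-74727692, in the coding sequence of *Hoxd4*. The reverse primer listed for *Hoxd3* lies at chr2:74728392-74728412, also in the coding sequence of *Hoxd4*. Both listed *Hoxd3* primers matched *Hoxd4* and *Gm28230* and neither matched an annotated *Hoxd3* transcript. The count of *Hoxd3* in these libraries does not rest on these primers.

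*Hoxd1*, at the anterior end (74762980 to 74765142), was the most scattered of the tested members. Counts of 9 and 24 for WT (0.604 and 1.51 CPM) stood against 9 and 17 for *Patz1* KO (0.371 and 1.01 CPM). The groups overlapped, and the 2 libraries of each genotype differed by more than the group means did. The estimate on the log2 scale, -0.72, did not pass the test (standard error 0.53, 95% interval -1.84 to 0.40, BH-adjusted p = 0.282, edgeR QL test). Single libraries decide this value. It was 0.12 without the second WT library, -0.07 without the first *Patz1* KO library, -1.20 without the first WT library and -1.50 without the second *Patz1* KO library, and the last of these passed 0.05 (adjusted p = 0.0403 from edgeR).

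The posterior members stayed close to 0. *Hoxd10* (74691924 to 74695105), a gene of lumbar MNs, had counts of 1 and 0 (WT) and of 2 and 3 (*Patz1* KO). Summed over libraries and scaled to their depth, the *Patz1* KO to WT ratio of *Hoxd10* was 3.75 with an exact 95% interval from 0.42 to 178, so no difference was detectable at this depth. *Hoxd11* and *Hoxd12* had 0 counts in all 4 libraries. The exact 95% interval of a count of 0 reaches 0.248 and 0.232 CPM in the WT libraries. In the *Patz1* KO libraries it reaches 0.152 and 0.220 CPM. *Hoxd13*, the last gene of the cluster, had counts of 2 and 4 (WT) and of 1 and 5 (*Patz1* KO), a ratio of 0.751 (exact 95% interval 0.201 to 2.81). Exons of *Hoxd10* and *Hoxd11* share 104 and 455 bases with the transcript *Gm28309*. These intervals and limits cover counting error alone, as the reads carry no molecular identifiers.

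Compared per kilobase of exon, the levels of the members followed their place in the cluster in part. In WT the order was *Hoxd4* (30.9 ± 0.506 CPM per kilobase), *Hoxd3* (9.45 ± 0.452), *Hoxd8* (1.47 ± 0.0327), *Hoxd1* (0.568 ± 0.344) and *Hoxd9* (0.229 ± 0.0321, SD, n = 2 for each). In *Patz1* KO it was *Hoxd4* (21.2 ± 2.05 CPM per kilobase), *Hoxd3* (9.83 ± 1.54), *Hoxd8* (4.35 ± 0.277), *Hoxd9* (1.29 ± 0.154) and *Hoxd1* (0.372 ± 0.244, SD, n = 2 for each). In WT both libraries of *Hoxd1* (0.325 and 0.811) lay above both of *Hoxd9* (0.251 and 0.206). The WT means of these genes differed by less than the SD of *Hoxd1*. In *Patz1* KO both libraries of *Hoxd9* lay above both of *Hoxd1*. The other neighbours in these orders differed by more than their spread. The *Hoxd9* level per kilobase in *Patz1* KO was 87.7% of the *Hoxd8* level per kilobase in WT. The exon lengths are those of GENCODE and may not be those used for counting.

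As a share of all *HoxD* counts of a library, which is free of the scaling between libraries, *Hoxd8* and *Hoxd9* together took 3.32% (Wilson 95% interval 2.62% to 4.19%) and 3.30% (2.63% to 4.14%) in WT. In *Patz1* KO they took 12.7% (11.5% to 14.0%) and 11.9% (10.6% to 13.4%). Both *Patz1* KO shares lay above both WT shares, and the intervals cover counting error alone. The share of *Hoxd4* was 67.9% and 65.6% in the WT libraries against 53.3% and 51.6% in those of *Patz1* KO. The share of *Hoxd3* was 28.2% and 29.8% against 33.5% and 35.3%. *Hoxd10* to *Hoxd13* together stayed between 0.113% and 0.368% in all libraries. The cluster as a whole had 136 ± 1.1 CPM in WT and 119 ± 14.3 CPM in *Patz1* KO (SD, n = 2 each). With 2 libraries against 2, an exact permutation test cannot give a p below 0.33, and none was run on these shares and sums.

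**Figure D2:**
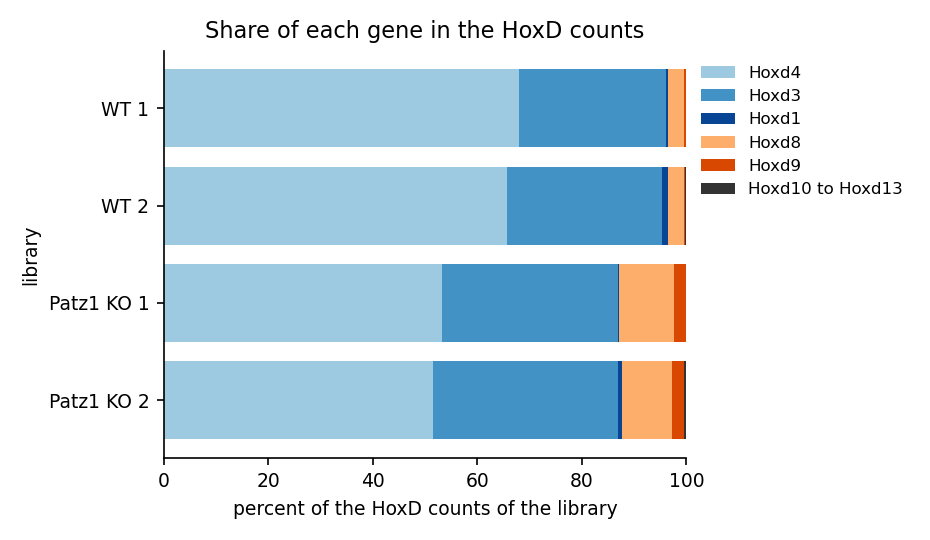
Share of each gene in the *HoxD* counts of each library, in percent, as stacked bars that add up to 100. The orange parts, *Hoxd8* and *Hoxd9*, made up 3.30% to 3.32% of the bars in WT and 11.9% to 12.7% in *Patz1* KO, while the light blue part, *Hoxd4*, was shorter in *Patz1* KO.

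**Figure D3:**
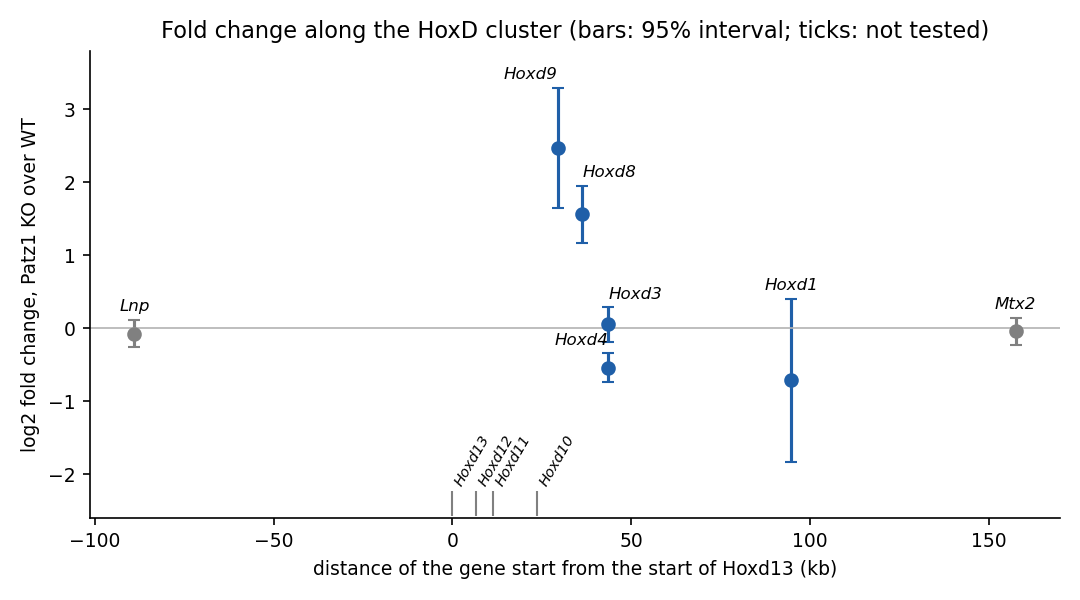
Log2 fold change of *Patz1* KO over WT against the distance of each gene start from the start of *Hoxd13* in kilobases. The annotated starts of *Hoxd3* and *Hoxd4* both lie at 43.6 kb, so this axis does not separate them. Points are edgeR estimates with their 95% intervals, grey for the flanking genes *Lnp* and *Mtx2*, and the ticks mark members that had too few counts to be tested. The intervals of *Hoxd9* and *Hoxd8* lay above 0, that of *Hoxd4* below 0, and those of *Hoxd3*, *Hoxd1*, *Lnp* and *Mtx2* included 0.

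The genes on either side of the cluster were counted to place these changes. *Evx2*, a homeobox gene next to *Hoxd13*, had 2 counts in the first *Patz1* KO library and 0 in the others. *Lnp*, which encodes an endoplasmic reticulum protein and is now named *Lnpk*, starts at -88.9 kb from the start of *Hoxd13*. Its counts (1339 and 1436 for WT, 1994 and 1493 for *Patz1* KO) gave a log2 value of -0.07 (standard error 0.089, BH-adjusted p = 0.515, edgeR QL test). *Mtx2*, a mitochondrial gene on the other side at 157 kb, gave counts of 1280 and 1426 (WT) and of 2045 and 1447 (*Patz1* KO), or -0.04 on the log2 scale (standard error 0.088). Of 16 flanking genes counted, 13 were tested, 1 was higher and 6 were lower, with a median log2 fold change of -0.23 against -0.0014 over all genes. These 7 called genes of 13 are close to the share of 47.9% over all genes. By direction, 24.1% of all genes were higher and 23.8% lower, so the list leaned to lower values. Whether this lean exceeds that of all genes was not tested. The lower ones were *Nfe2l2* (-1.18), *Chrna1* (-0.93), *Hnrnpa3* (-0.62), *Agps* (-0.60), *Atp5g3* (-0.24) and *Atf2* (-0.23). *Chn1*, which encodes a signalling protein of axon growth, was higher (0.36). The called genes start far from the cluster, the nearest being *Atp5g3* at -757 kb from the start of *Hoxd13* and the farthest *Agps* at 1164 kb. *Ttc30a1* (-0.41), *Ttc30b* (0.31), *Wipf1* (-0.23) and *Gpr155* (0.20) did not pass the test.

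The paralogues of *Hoxd8* and *Hoxd9* in the other clusters gave a mixed picture. *Hoxb8* counts were 774 and 783 (WT) and 1033 and 738 (*Patz1* KO), a log2 value of -0.23 (standard error 0.096, BH-adjusted p = 0.0611, edgeR QL test). Those of *Hoxc8* were 43 and 55 (WT) and 56 and 50 (*Patz1* KO), a log2 value of -0.28 (standard error 0.27). Neither passed the test, so *Hoxd8* was the member of its group that was called. In group 9, *Hoxa9*, with counts of 1 and 0 (WT) and of 20 and 10 (*Patz1* KO), fell short of the filter on low counts. *Hoxc9* went from 5 and 10 to 24 and 15 counts, and *Hoxb9*, with the most counts of the group, from 1343 and 1520 to 2651 and 1671. The log2 fold changes of *Hoxc9* (0.95, standard error 0.49) and *Hoxb9* (0.17, standard error 0.09) did not pass the test. Whether *Hoxd8* and *Hoxd9* differ from their paralogues in their response was not tested.

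**Figure D4:**
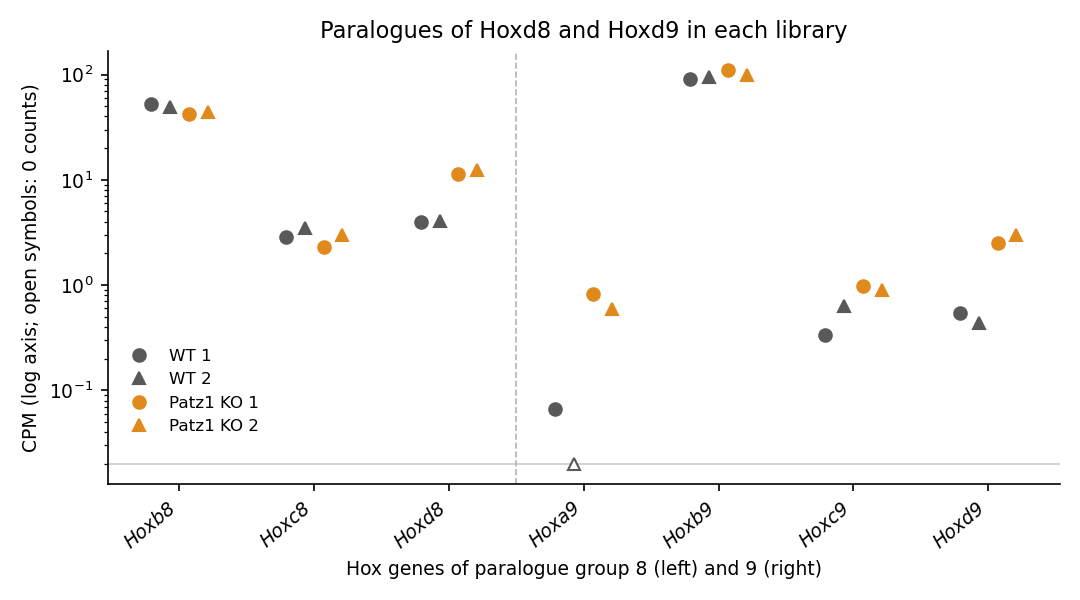
CPM of the paralogues of *Hoxd8* (left of the dashed line) and *Hoxd9* (right) in every library on a log axis, with WT in grey and *Patz1* KO in orange, and an open symbol for 0 counts. *Hoxd8*, *Hoxd9*, *Hoxa9*, *Hoxb9* and *Hoxc9* had both *Patz1* KO libraries above both WT libraries. Groups without overlap, in either direction, were found in 74.2% of all genes tested. *Hoxb9* and *Hoxc9* did not pass the test, and *Hoxa9* was not tested. *Hoxb9* was at a far higher level in both genotypes (92.9 CPM in WT and 104.5 CPM in *Patz1* KO).

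Among the 21 tested *Hox* genes of the other clusters, 3 were higher and 9 lower in *Patz1* KO. Of all genes tested, 47.9% were called, 24.1% higher and 23.8% lower. The median log2 fold change of these *Hox* genes was -0.23, against -0.0014 over all genes. The one whose profile over the 4 libraries was most like that of *Hoxd8* was *Hoxa7* (distance of centred log2 CPM 0.159), and the same gene was nearest to *Hoxd9* (distance 0.956). *Hoxa7* went from 4.70 CPM in WT to 14.4 CPM in *Patz1* KO. The next gene in both orders was *Hoxa6*. The likeness rests on 4 libraries that share their scaling, and many genes follow the genotype.

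TALE proteins are homeodomain cofactors that bind DNA together with HOX proteins. All 9 of their genes were tested, and 2 were higher (24.1% of all genes were), *Meis3* (log2 fold change 0.59, standard error 0.095) and *Pbx3* (0.54, standard error 0.088). The median log2 fold change of the list was -0.018.

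Genes that provide or limit the signals for *Hox* expression were also counted. Of 18 genes for RA metabolism, RA receptors and posterior factors, 11 were tested, 3 were higher and 6 lower, with a median log2 fold change of -0.30, where 24.1% of all genes were higher and 23.8% lower. *Cyp26a1*, which breaks down RA and is itself switched on by RA, fell from 117 to 41.7 CPM (log2 fold change -1.48), and *Aldh1a2*, which makes RA, from 52.8 to 22.7 CPM (-1.21). The receptor gene *Rarb*, another RA target, fell by 0.49 on the log2 scale, while *Rarg* and *Rxrg* rose by 1.26 and 1.13. The posterior factors were near 0. *Cdx2* counts were 4 and 8 in WT but 0 in both *Patz1* KO libraries, and *Cdx1* had none in any library.

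Polycomb factors keep posterior *Hox* genes silent, and boundary factors separate active from silent chromatin. A list of 29 genes held such factors and some that oppose Polycomb, and each gene was tested alone. Of these, 5 were higher and 10 lower, a share close to the 47.9% called among all genes. By direction, 24.1% of all genes were higher and 23.8% lower. The median log2 fold change of the list was -0.14. *Cbx7* and *Cbx8*, which encode chromodomain subunits of Polycomb repressive complexes, rose by 1.81 and 1.14 on the log2 scale, and *Cbx2* fell by 0.55. *Mll1*, which encodes a histone methyltransferase that opposes Polycomb, fell by 0.51. *Ctcf*, the insulator gene, fell by 0.46 and *Stag1*, a cohesin subunit gene, by 0.51 on the log2 scale. The methyltransferase gene *Ezh2*, at 1664 and 1779 (WT) and 2646 and 2042 (*Patz1* KO) counts, did not pass the test (log2 fold change 0.05, standard error 0.088). Of 11 spinal progenitor and interneuron markers, 10 were tested, 5 were higher and 2 lower (24.1% and 23.8% of all genes were). Among them *Evx1*, with counts of 0 and 4 (WT) and of 29 and 11 (*Patz1* KO), had a log2 fold change of 2.82 (standard error 0.75) and *Pax6* one of -1.05 (standard error 0.13).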

How the data were processed

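RNA-seq libraries were stranded, made from total RNA after removal of ribosomal RNA. Per the labels and the methods, the authors mapped reads to mm10 with Bowtie 2 and deposited raw counts per gene symbol, 1 table per library. The submitters' processing notes name TopHat2 2.1.1, Bowtie2 2.3.1, featureCounts 1.6.2 and DESeq2. The annotation and the strand setting are not given in the sources used here, so reads of overlapping genes cannot be assigned with certainty. Every line names a gene.

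TMM factors and the quasi-likelihood test came from edgeR 4.0.16 (limma 3.58.1, R 4.3.3), run on all 14269 genes left by filterByExpr (minimum count 10), with Benjamini-Hochberg adjustment over all of them. A gene could pass this filter through the libraries of a single genotype, as *Hoxd9* and *Evx1* did. The DESeq2 1.42.0 Wald test was an alternative. Standard errors were derived from F, as the size of the log2 fold change over the root of F. In these libraries 1 count is worth 0.0413 to 0.0671 CPM. The p-values, standard errors and intervals rest on the spread between 2 differentiations per genotype, combined by the fit with the spread of the other genes tested. They are thus not a spread measured in each gene alone. Positions, exon overlaps and primer matches come from GENCODE M21 (GRCm38, the assembly of mm10) and promoters from RefSeq, with Python 3.11.15, pandas 2.3.3 and scipy 1.17.1. The code of the tests was run on counts simulated with the same spread setting for every gene. Fewer genes were changed in that simulation than were called here, so it is a check of the code alone.

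The members and gene lists were chosen with earlier results of these data known. Named genes were *Patz1*, all members, tested neighbours, the paralogues of *Hoxd8* and *Hoxd9*, the *Hox* gene nearest to each, and up to 5 genes of each list by adjusted p. *Ezh2*, *Cbx2*, *Ctcf*, *Evx1*, *Evx2*, *Mir10b*, *Gdf11*, *Cdx1*, *Cdx2*, *Pou5f1*, *Utf1* and *Meox2* were added after their values were seen. Some genes that the rule names are not reported here. Other libraries of the study were not analysed here.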

Additional observations from a re-analysis of the deposited data

How the results depend on the processing

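*Hoxd8* and *Hoxd9* were called higher under every alternative that tested them, with log2 fold changes from 1.50 to 1.63 and from 2.34 to 2.62 (adjusted p of at most 0.0191 and 0.00596 from edgeR or DESeq2). *Hoxd4* was called lower by every alternative that tested it except the one with a smallest log2 fold change of 1 (2 *HoxD* genes called), with values from -0.64 to -0.44. The 3 scalings in place of TMM, thinning to the smallest library, robust estimation and DESeq2's Wald test left the calls of the 5 tested members as they were. Requiring 10 counts in every library removed *Hoxd1* and *Hoxd9* and left 2 called. Leaving out 1 library moved *Hoxd3* between -0.11 and 0.21 on the log2 scale, reversed without the second *Patz1* KO library. It moved *Hoxd1* between -1.50 and 0.12, reversed without the second WT library. Over the 4 fits that left out 1 library, 3 to 4 *HoxD* genes and 4521 to 7816 of all genes were called, the lowest without the second WT library. In such a fit the lone library is assumed to vary like the other group. The gain in the share of *Hoxd8* and *Hoxd9* stayed between 8.62 and 9.41 percentage points (9.02 with all libraries). Against 6836 genes called, the requirement of a log2 fold change beyond 1 lowered the count to 718, and DESeq2's Wald test called 5116. With the replicate number as a block, 3 *HoxD* genes and 7361 of all genes were called. Same-numbered libraries did not deviate together (correlation across genes 0.049), so the block rests on a shared number alone. With 7 to 8 counts in WT, *Hoxd9* is limited by counting error, and the posterior members could not be compared.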
